A study of Homo sapiens with 12 samples.

Results

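The mitochondrial ribosomal protein genes were followed through an RNA-seq experiment in HaCaT cells, an established line of immortalized human keratinocytes. They were taken as every protein-coding row of the expression table whose symbol starts with MRPL or MRPS followed by a digit. The letters L and S were given for the large and the small subunit, although the products of MRPS18A and MRPS30 are now placed in the large one. This gave 78 genes, 49 with an MRPL and 29 with an MRPS name, out of 58735 rows, of which 19951 were protein-coding. All 78 passed the filter on low values, a mean of at least 0.5 FPKM (reads scaled for gene length and library depth) in at least 1 group, which kept 14577 genes in all. The same symbols headed 77 further rows, 75 of them pseudogenes and 2 antisense genes, and of these only MRPL45P2 (mean 1.29 FPKM) and MRPS31P4 (0.599 FPKM) passed the filter.

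The 12 libraries formed 4 groups of 3. Cells received a control siRNA (Control-siRNA) or an siRNA against PHGDH (PHGDH-siRNA), the first enzyme of serine synthesis from glucose, and were left without further stimulus or stimulated for 24 h with a mixture the labels call mix, whose components they do not name. All groups are transfected cells of 1 line, so no group is untransfected, and the labels do not say whether replicates were separate cultures; if not, the p-values measure technical spread only. The FPKM values gave back whole reads, 16403845 to 20901128 per library, and the 78 genes took 0.37 to 0.656% of them.

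PHGDH itself stood at 36.5, 56.2 and 45.8 FPKM in Control-siRNA and at 23.7, 20.1 and 16.9 FPKM in PHGDH-siRNA. With mix it stood at 31.9, 31.2 and 26.6 FPKM under the control siRNA and at 19.1, 13.3 and 11.5 FPKM under the PHGDH siRNA. The groups did not overlap in either state, and the transcript was lower where the labels name its siRNA; an exact permutation test of 3 against 3 libraries gave its smallest possible two-sided p, 0.1, in both states. The log2 fold change was -1.14 (SE 0.207, adjusted p = 0.128) without mix and -1.01 (SE 0.207, adjusted p = 0.2) with mix, and -1.08 (SE 0.146, adjusted p = 0.0197) averaged over both. All 8 basal keratinocyte markers lay above 1 FPKM, led by KRT14 at 1270 FPKM, whereas none of the fibroblast, melanocyte or endothelial markers and only CD14 (1.6 FPKM) among the leukocyte markers did.

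The mitochondrial ribosome makes the few proteins encoded by mitochondrial DNA, all of them core parts of the respiratory chain and ATP synthase. Its RNA is transcribed from mitochondrial DNA, but all of its proteins are encoded in the nucleus, made in the cytosol and imported. Promoters of nuclear genes for mitochondrial proteins are known for binding sites of NRF1, of ETS family factors such as GABPA, and of YY1.

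The promoters are shown first, since the members share motifs there that their selection by name did not use. The table of RefSeq promoters on GRCh38.p14 (250 bases before to 50 after each start) held 85 windows for 69 of the 78 genes and 35116 windows in all. The ETS core, CCGGAAG on either strand, was in 33 of the 85 member windows (38.8%), against 10.3% of all windows. The YY1 core, AAGATGGC on either strand, was in 23 (27.1%), against 2.89% of all windows. The GC box GGGCGG was in 60.0% of member windows and 45.0% of all, and the NRF1 core CGCATGCG in 3.53% and 2.02%. The TATA box TATAAA, added after the other 4 had been counted, was in 3.53% of member windows and 11.5% of all. No motif contains another, windows of the same gene can overlap each other, and a match describes letters, not binding.

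The ETS core lay close to the start in MRPL58, MRPS18A and MRPS31, here with the 60 bases before the start, 5′ to 3′, and the core in capitals. MRPL58 (chr17:75012610-75012669, plus strand) encodes a peptidyl-tRNA hydrolase that became part of the large subunit. MRPS18A (chr6:43687792-43687851, minus strand) is a relative of a bacterial small-subunit protein, and MRPS31 (chr13:40771191-40771250, minus strand) encodes a small-subunit protein.
MRPL58: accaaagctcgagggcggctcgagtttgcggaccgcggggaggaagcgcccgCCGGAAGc
MRPS18A: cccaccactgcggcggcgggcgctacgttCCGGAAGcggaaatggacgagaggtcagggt
MRPS31: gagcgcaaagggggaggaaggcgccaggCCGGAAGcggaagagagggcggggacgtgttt

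The YY1 core began within the first 31 bases after the start in 15 of the 85 member windows (17.6%), against 1.36% of all windows. The letters of this core hold ATG, which also occurs in start codons. It is shown in 30-base stretches for 6 genes, with the core in capitals: MRPS27 (chr5:72320206-72320235, minus strand) and MRPS18B (chr6:30617852-30617881, plus strand), which changed with mix as described further on, and MRPS18A (chr6:43687764-43687793, minus strand), MRPS7 (chr17:75261887-75261916, plus strand), MRPL49 (chr11:65122333-65122362, plus strand) and MRPS24 (chr7:43869480-43869509, minus strand).
MRPS27: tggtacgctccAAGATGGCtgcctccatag
MRPS18B: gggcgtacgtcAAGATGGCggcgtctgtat
MRPS18A: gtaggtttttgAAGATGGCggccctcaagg
MRPS7: cgtggccagccAAGATGGCtgcccccgcag
MRPL49: cgtagcaggtaAAGATGGCagctaccatgt
MRPS24: ccgcttggcccAAGATGGCggcctccgtgt

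MRPL37 (chr1:54200107-54200166, plus strand) and MRPS14 (chr1:175023426-175023485, minus strand), which also changed with mix, held none of the NRF1, ETS and YY1 cores in the 60 bases before the start.
MRPL37: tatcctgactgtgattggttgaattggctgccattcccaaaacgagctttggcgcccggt
MRPS14: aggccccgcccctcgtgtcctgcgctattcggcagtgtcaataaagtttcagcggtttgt

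**Figure D1:**
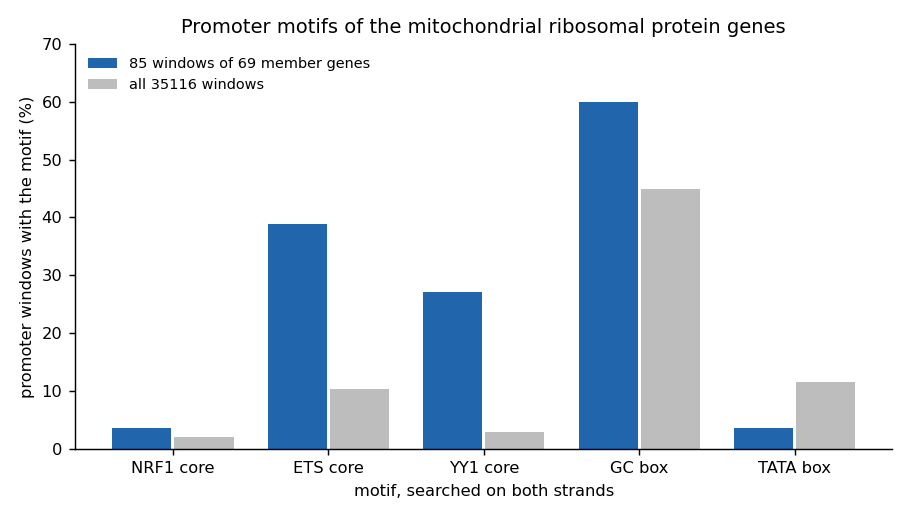
Share of promoter windows (vertical axis, percent) that hold each motif (horizontal axis), for the members (blue) and for all windows (grey). The ETS core (38.8 against 10.3%) and the YY1 core (27.1 against 2.89%) are more frequent among the members, and the TATA box (3.53 against 11.5%) less frequent.

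The genes lay on 21 chromosomes, at most 8 on any. In 19 of them (24.4%) the start lay head to head with that of a protein-coding gene on the other strand within 1000 bases (overlaps of up to 200 bases included), against 8.82% of all 19951 protein-coding genes. Some partners also encode mitochondrial proteins: MRPL46 and MRPS11 started 34 bases apart, MRPL36 and the complex I gene NDUFS6 34 bases, MRPL47 and the complex I gene NDUFB5 36 bases, and MRPL43 and the mitochondrial helicase gene TWNK 148 bases. Levels differed within pairs, from MRPL18 at 47.7 FPKM beside the chaperonin gene TCP1 at 48.6 FPKM to MRPS34 at 172 FPKM beside EME2 at 1.67 FPKM.

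Levels per gene length spanned from MRPS34 at 172 FPKM to MRPS24 at 0.356 FPKM, and 61 of the 78 genes had a mean of at least 10 FPKM over the 12 libraries. After MRPS34 came MRPL41 (105 FPKM), MRPL14 (101 FPKM), MRPL15 (92.8 FPKM) and MRPS26 (90.7 FPKM). MRPL14 and MRPL15 are counterparts of bacterial ribosomal proteins, and MRPS34, MRPL41 and MRPS26 encode proteins that bacterial ribosomes lack. In Control-siRNA, MRPS34 was at 119, 263 and 216 FPKM, MRPL41 at 76.9, 155 and 117 FPKM and MRPL14 at 79.0, 129 and 113 FPKM. The group's ranges overlap, but MRPS34 was the highest of all 78 genes in each of the 12 libraries, while the order of the 4 genes after it changed between libraries: MRPL41 led them in 7. The summed FPKM of the 49 MRPL-named genes was 1.73 to 2.02 times that of the 29 MRPS-named genes in every library. This ratio is not adjusted for the different numbers of genes.

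At the other end, MRPS24 ranged from 0.0199 to 0.923 FPKM (1 to 42 reads), MRPL38 from 0.312 to 0.726 FPKM, MRPL46 from 1.01 to 2.05 FPKM, MRPL53 from 1.28 to 3.19 FPKM and MRPL42 from 2.2 to 3.97 FPKM. All encode structural proteins of the ribosome, and MRPS24 is the counterpart of a core bacterial small-subunit protein. Several of these low genes share exon bases with neighbours. MRPL53 shared 45.2% of its exon bases, mainly with CCDC142. MRPL38 shared 41.1%. MRPS24 shared 23.2%, with the read-through gene URGCP-MRPS24. The median share was 27.0% for the 7 members below 5 FPKM and 0% for the other 71. How the authors' counting treated shared bases and strand is not given in the sources used here, so the levels of these genes are uncertain, and the part of shared bases in their low level was not tested. MRPL12, which shared 68.2% with an overlapping annotated gene on its own strand (0 FPKM), and MRPL33, which shared 21.1% with BABAM2 (6.45 FPKM), carry the same uncertainty. It extends to genes shared with abundant neighbours on the other strand. MRPL51 shared 31.3% with NCAPD2 (60.9 FPKM), and MRPS14 13.5% with CACYBP (31.8 FPKM). In all, 41 of the 78 genes shared exon bases with another gene on either strand.

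Other members that are often singled out lay between. MRPS12, the counterpart of the bacterial decoding-centre protein, averaged 35.5 FPKM, MRPL11, of the stalk base, 50.5 FPKM, and MRPL3 68.0 FPKM. Of the related MRPS18A, MRPS18B and MRPS18C, the averages were 28.3, 56.7 and 3.61 FPKM, and the lowest MRPS18B library (36.4 FPKM) lay above the highest MRPS18C library (4.51 FPKM). MRPS2 averaged 60.1 FPKM, MRPS5 17.3 FPKM, MRPL58 39.1 FPKM and MRPS36, whose product has since been assigned to the oxoglutarate dehydrogenase complex, 16.0 FPKM. Ribosomal proteins of the mitochondrion without an MRP name ranged from 4.65 to 73.3 FPKM. DAP3, a GTP-binding small-subunit protein, averaged 30.0 FPKM, CHCHD1 35.8 FPKM, AURKAIP1 71.2 FPKM, GADD45GIP1 73.3 FPKM and PTCD3 4.65 FPKM.

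**Figure D2:**
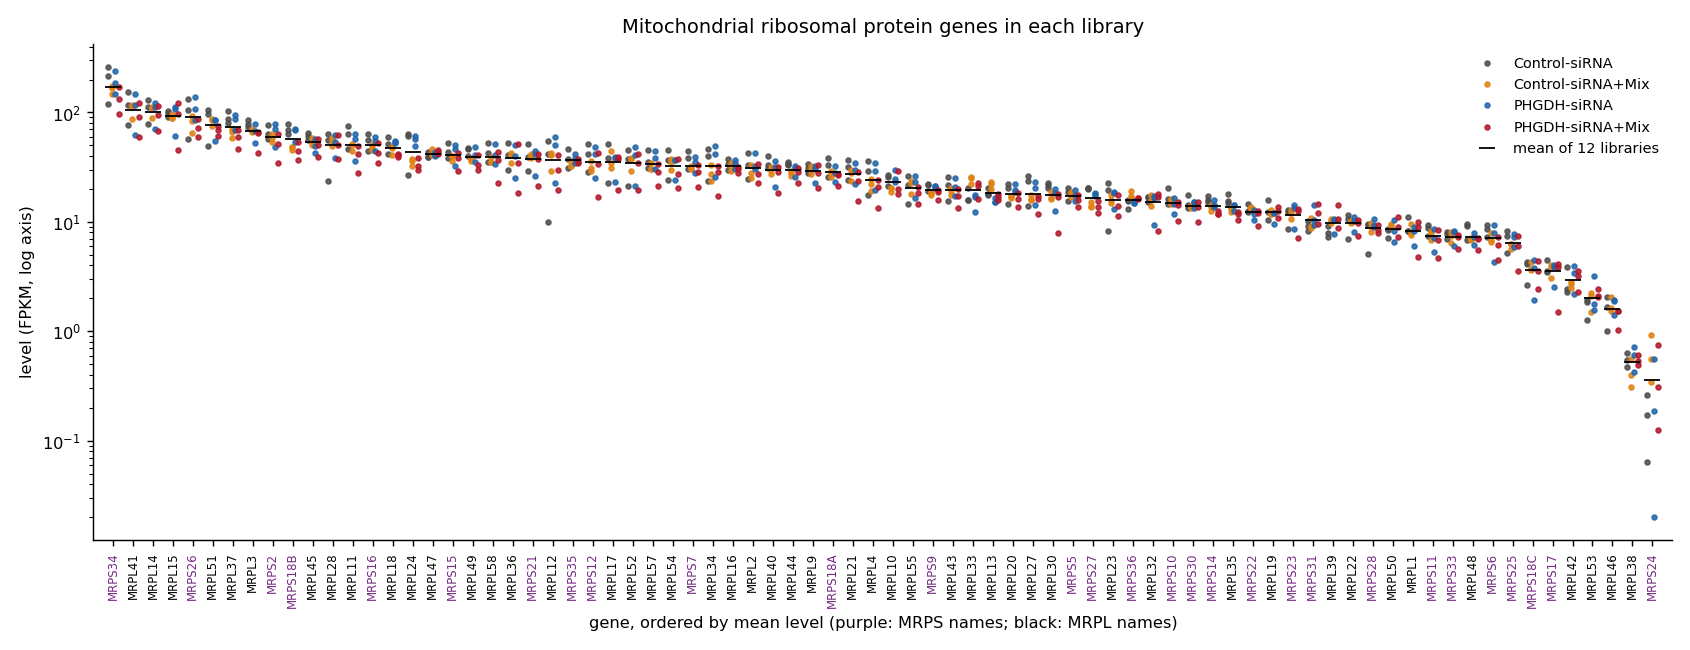
Level of each of the 78 genes (horizontal axis) in each of the 12 libraries (vertical axis, FPKM, log axis), coloured by group, with the mean as a black bar. MRPS34 (mean 172 FPKM) leads, and MRPL38 (0.527) and MRPS24 (0.356) lie lowest.

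Libraries of the same group differed in these genes. Within each group, each library was set against the mean of the other 2 on the log2(FPKM + 1) scale. The median of the 78 genes was -0.413 in PHGDH-siRNA replicate 2, -0.458 in PHGDH-siRNA+Mix replicate 2 and -0.315 in Control-siRNA replicate 1, where 67, 68 and 59 of the 78 genes were lower. It was highest in PHGDH-siRNA+Mix replicate 1 (0.380), PHGDH-siRNA replicate 1 (0.288) and Control-siRNA replicate 2 (0.286), and lay between -0.123 and 0.128 in the 3 Control-siRNA+Mix libraries. In both replicate 2 libraries of the PHGDH arms 66 of 78 members (84.6%) were lower than in the rest of their group, against 41.6% of all 14577 genes.

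The same 3 low libraries also differed by base composition across all genes. Among all tested genes, the quartile with the lowest GC content had medians of 0.325 in Control-siRNA replicate 1, 0.265 in PHGDH-siRNA replicate 2 and 0.256 in PHGDH-siRNA+Mix replicate 2, and the highest quartile -0.314, -0.221 and -0.168. The libraries with the highest member medians deviated the other way. Control-siRNA replicate 2, PHGDH-siRNA replicate 1 and PHGDH-siRNA+Mix replicate 1 had -0.257, -0.266 and -0.274 in the lowest quartile. In the highest quartile they had 0.256, 0.231 and 0.196. The members spread over all 4 quartiles (21, 21, 19 and 17 genes), with a median GC content of 47.7%. In the highest GC quartile the members' medians in the 3 low libraries were -0.696, -0.576 and -0.646, and in the lowest quartile 0.127, -0.168 and -0.317. With each library's trend on GC content and gene length removed, the medians of all 78 were -0.231, -0.325 and -0.375, still the lowest of their groups. The 16S rRNA MT-RNR2 was at 3910 and 4040 FPKM in the replicate 2 libraries of the PHGDH arms and at 1300 to 1860 FPKM in the other 10. The part of RNA quality or library preparation in these differences was not tested.

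MRPL12, the stalk protein, varied most within groups, with a pooled SD of 0.789 on the log2 scale: it was at 9.92, 55.4 and 42.1 FPKM in Control-siRNA, 42.4, 40.6 and 29.1 FPKM in Control-siRNA+Mix, 60.0, 22.8 and 50.7 FPKM in PHGDH-siRNA and 41.2, 19.6 and 29.7 FPKM in PHGDH-siRNA+Mix. The 3 libraries named as low hold its lowest value in each of their groups. MRPL15 and MRPL36 moved furthest down beside it in the replicate 2 libraries. MRPL15 was at 107, 61.0 and 113 FPKM in PHGDH-siRNA and 121, 45.5 and 96.4 FPKM in PHGDH-siRNA+Mix, and MRPL36 at 50.1, 25.0 and 39.7 FPKM and 51.7, 18.3 and 34.3 FPKM. MRPS31, MRPL42 and MRPL39 went the other way: MRPS31 was at 10.3, 14.2 and 9.27 FPKM in PHGDH-siRNA and 9.62, 14.5 and 12 FPKM in PHGDH-siRNA+Mix. MRPL47 was the steadiest member (SD 0.074), between 38.8 and 45.9 FPKM in all 12 libraries. The median within-group SD was 0.253 for the members and 0.236 for all genes tested.

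**Figure D3:**
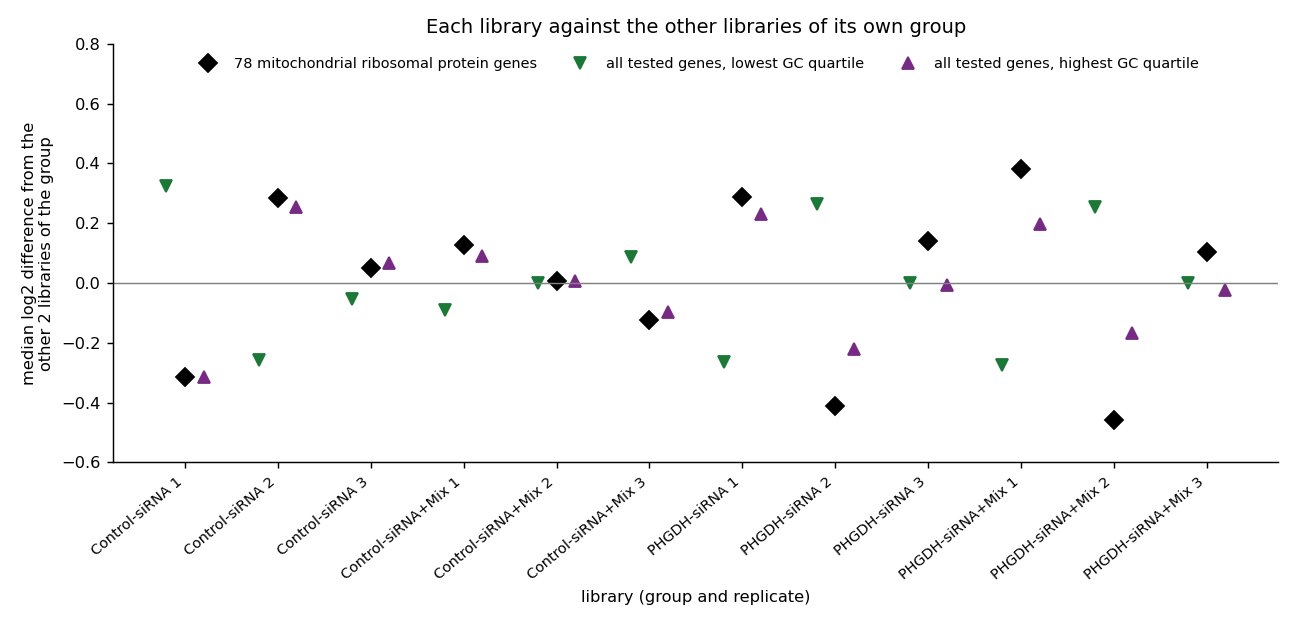
Median log2 difference of each library (horizontal axis) from the other 2 libraries of its group (vertical axis), for the 78 genes (diamonds) and for all tested genes in the lowest (downward triangles) and highest (upward triangles) GC quartile. The members lie lowest in PHGDH-siRNA+Mix replicate 2 (-0.458), PHGDH-siRNA replicate 2 (-0.413) and Control-siRNA replicate 1 (-0.315).

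The first comparison asks whether lowering PHGDH moved these genes. No member passed an adjusted p of 0.05 without mix (0.0412% of all genes did), with mix (0.0206%) or averaged over both states (0.487%). At an unadjusted p under 0.05 there were 0, 1 and 2 members (0, 1.28 and 2.56%), beside 6.41, 5.72 and 11.2% of all genes. Members lay lower under PHGDH-siRNA in 46 of 78 genes without mix (median log2 fold change -0.05), in 69 with mix (median -0.16) and in 64 averaged (median -0.11), while the medians over all genes tested were 0.01, 0.00 and 0.00. The averaged median was -0.09 for the MRPL-named and -0.12 for the MRPS-named genes. The groups did not overlap for 5 members without mix and 4 with mix, all lower, where 5.3% and 7.33% of all genes were lower without overlap and 4.89% and 7.01% higher. The medians depended on single libraries. With both PHGDH-arm replicate 2 libraries left out, the medians were 0.08 without mix, 0.01 with mix and 0.04 averaged. Leaving out only PHGDH-siRNA replicate 2 also gave 0.08 without mix, leaving out only Control-siRNA replicate 2 gave 0.06, and leaving out only PHGDH-siRNA+Mix replicate 2 gave 0.01 with mix. The averaged median lay between -0.17 (without Control-siRNA replicate 1) and -0.02 (without PHGDH-siRNA+Mix replicate 2). With Control-siRNA replicate 1 left out beside both PHGDH-arm replicate 2 libraries, the medians were -0.04 without mix (51 of 78 lower), 0.01 with mix (36 lower) and -0.01 averaged (46 lower). In bulk libraries a lower level in every cell and fewer cells with the transcript cannot be told apart.

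MRPL13, the counterpart of a bacterial large-subunit protein, had the lowest p in all 3 forms of this comparison. It was at 17.6, 20.3 and 17.9 FPKM in Control-siRNA and at 15.3, 16.7 and 15.1 FPKM in PHGDH-siRNA. With mix it was at 22.2, 23.0 and 20.1 FPKM under the control siRNA and at 15.9, 16.9 and 18.0 FPKM under the PHGDH siRNA. The groups did not overlap in either state, and the averaged log2 fold change was -0.29 (SE 0.0748, unadjusted p = 0.00276, adjusted p = 0.158). Its adjusted p ranged from 0.0342 to 0.403 over the 21 alternatives, and was under 0.05 in 1 of them, with 3 libraries left out.

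MRPL35, a large-subunit protein with a bacterial counterpart, followed with an averaged log2 fold change of -0.20 (SE 0.0786, adjusted p = 0.392), and MRPS22, a small-subunit protein without one, with -0.21 (SE 0.0953, adjusted p = 0.456). MRPS22 was at 14.7, 12.4 and 12.6 FPKM in Control-siRNA and 11.9, 10.4 and 12.9 FPKM in PHGDH-siRNA, and these groups overlapped. With mix it was at 13.2, 13.5 and 13.7 FPKM under the control siRNA and at 12, 9.09 and 12.7 FPKM under the PHGDH siRNA, without overlap. MRPL45 had -0.28 (SE 0.16, adjusted p = 0.903) without mix, and MRPL33 -0.28 (SE 0.172, adjusted p = 0.979) with mix. MRPS31 had the highest averaged value, 0.27 (adjusted p = 0.468), and MRPL30 the lowest, -0.34 (adjusted p = 0.539). None of these was distinguished from 0 after adjustment.

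The second comparison asks what 24 h of mix did. Averaged over both siRNAs, MRPS27, MRPS18B, MRPL37, MRPL35 and MRPS14 fell and MRPL33 rose, 6 of the 78 members (7.69%), where 20.9% of all genes passed the same threshold, 9.51% lower and 11.4% higher. Members lay lower with mix in 65 of 78 genes, with a median log2 fold change of -0.13 beside 0.00 for all genes tested. It lay at -0.20 without Control-siRNA replicate 1 and without PHGDH-siRNA+Mix replicate 1, at -0.21 without PHGDH-siRNA replicate 2 and at -0.07 without PHGDH-siRNA+Mix replicate 2. The median was -0.11 for the MRPL-named and -0.15 for the MRPS-named genes. The share of members called is below the share of all genes, although most members lay on the lower side. A block on the replicate number within the PHGDH arm was added after seeing that same-numbered libraries deviated together there. With it, 22 members were called (18 lower, 4 higher), 28.2% beside 37.9% of all genes, among them the same 6. With the block over all 12 libraries 4 members were called (5.13%, beside 20.1%). The block within the arm was chosen from these data, so the 22 calls are no separate support for a change with mix.

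MRPS27, which encodes a small-subunit protein with pentatricopeptide repeats, an RNA-binding fold, was at 20.2, 20.4 and 19.9 FPKM in Control-siRNA and at 15.3, 13.7 and 14.1 FPKM in Control-siRNA+Mix. Under the PHGDH siRNA it was at 18.2, 17.4 and 17.8 FPKM without mix and at 15.5, 12 and 13.6 FPKM with mix. All 6 libraries with mix lay below all 6 without, as in 4.97% of all genes. The averaged log2 fold change was -0.41 (SE 0.076, adjusted p = 0.00289).

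MRPS18B, a second relative of the protein behind MRPS18A, was at 63.2, 78.8 and 69.3 FPKM in Control-siRNA and at 48.6, 47.9 and 45.6 FPKM in Control-siRNA+Mix. It was at 70.2, 53.4 and 68.7 FPKM in PHGDH-siRNA and at 53.8, 36.4 and 44.9 FPKM in PHGDH-siRNA+Mix. The groups were apart under the control siRNA and met under the PHGDH siRNA, where replicate 2 without mix (53.4) lay just below replicate 1 with mix (53.8). The averaged log2 fold change was -0.53 (SE 0.115, adjusted p = 0.007).

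MRPL37, a large-subunit protein that bacterial ribosomes lack, was at 80.9, 104 and 86.8 FPKM in Control-siRNA and at 70.5, 66.5 and 58.9 FPKM in Control-siRNA+Mix. It was at 95.8, 69.4 and 86.3 FPKM in PHGDH-siRNA and at 68.7, 46.0 and 59.3 FPKM in PHGDH-siRNA+Mix, so mix and no mix did not overlap in either arm. The averaged log2 fold change was -0.50 (SE 0.125, adjusted p = 0.0166). MRPS27, MRPS18B and MRPL37 stayed past the threshold in all 22 alternatives.

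MRPL35 was at 18.0, 15.6 and 15 FPKM in Control-siRNA, 13.5, 12.3 and 13.3 FPKM in Control-siRNA+Mix, 14.3, 12.6 and 14.4 FPKM in PHGDH-siRNA and 11.7, 10.4 and 12.3 FPKM in PHGDH-siRNA+Mix. Its groups did not overlap in either arm, and its averaged log2 fold change was -0.27 (SE 0.0786, adjusted p = 0.0331). MRPS14, the counterpart of a core bacterial small-subunit protein, was at 15.8, 17.1 and 15.3 FPKM, then 14.4, 12.6 and 13.6 FPKM with mix under the control siRNA, and at 15.7, 14.4 and 13.8 FPKM, then 11.9, 12.7 and 11.7 FPKM with mix under the PHGDH siRNA. Its groups did not overlap either, and its averaged log2 fold change was -0.24 (SE 0.0712, adjusted p = 0.0343).

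MRPL33, the counterpart of a small bacterial large-subunit protein, was the member that rose. It was at 15.7, 20.6 and 15.8 FPKM in Control-siRNA and at 25.7, 25.3 and 22.4 FPKM in Control-siRNA+Mix, without overlap. It was at 17.7, 12.2 and 16.8 FPKM in PHGDH-siRNA and at 22.5, 16.3 and 21.4 FPKM in PHGDH-siRNA+Mix, where replicate 2 with mix lay inside the range without mix. The averaged log2 fold change was 0.41 (SE 0.121, adjusted p = 0.033). The calls of MRPL33, MRPL35 and MRPS14 depended on single libraries. MRPL33 missed the threshold in 9 of 22 alternatives (largest adjusted p 0.0843), MRPL35 in 9 (0.0938) and MRPS14 in 11 (0.103), among them, for all 3 genes, each of the 3 fits that left out a Control-siRNA+Mix library. The call of MRPL33 was also lost without replicate 1 or 3 of Control-siRNA or of PHGDH-siRNA+Mix. That of MRPL35 was lost without replicate 1 or 2 of Control-siRNA, 1 or 3 of PHGDH-siRNA or 2 of PHGDH-siRNA+Mix. That of MRPS14 was lost without replicate 2 or 3 of Control-siRNA, 1 of PHGDH-siRNA, or 1 or 3 of PHGDH-siRNA+Mix.

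**Figure D4:**
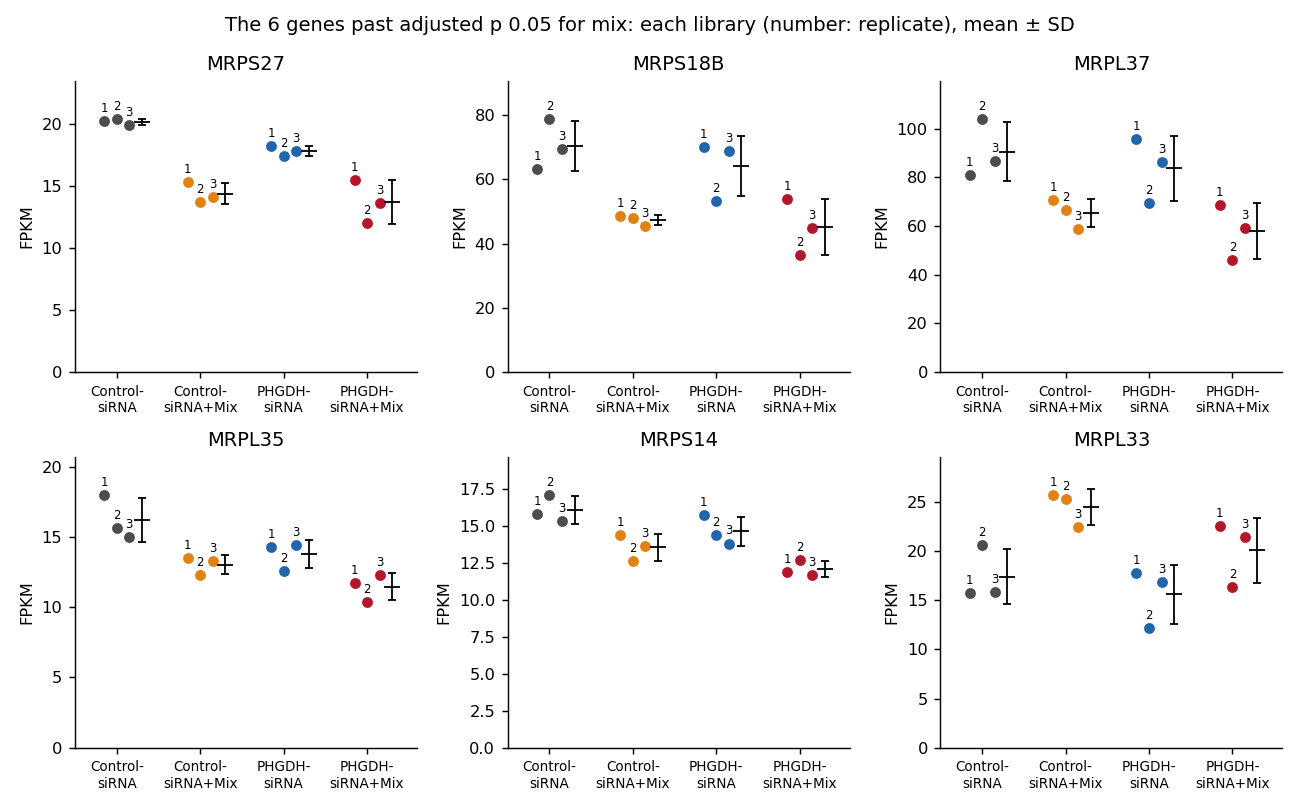
FPKM (vertical axes, from 0) of the 6 members past adjusted p 0.05 for mix in each library, by group (horizontal axes), with replicate numbers and the mean ± SD (n = 3) beside each group. MRPS27 shows no overlap between the 6 libraries with mix (12 to 15.5 FPKM) and the 6 without (17.4 to 20.4 FPKM), and MRPL33 is the one gene that lies higher with mix.

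Just outside the threshold, MRPL24 had the largest averaged decrease of any member, -0.56 (SE 0.19, adjusted p = 0.06), with a larger error than the called genes. MRPL18 (-0.28, adjusted p = 0.0667) and MRPS9 (-0.21, adjusted p = 0.0894) followed. MRPS36 was the member whose 6 libraries with mix (16.1 to 19.2 FPKM) all lay above the 6 without (13.2 to 15.7 FPKM), as in 6.54% of all genes, with a log2 fold change of 0.18 (SE 0.0724, adjusted p = 0.106). The 2 most abundant members had wide errors: MRPS34 at -0.37 (SE 0.213, adjusted p = 0.257) and MRPL41 at -0.17 (SE 0.251, adjusted p = 0.691). MRPL12 could not be placed, at -0.08 (SE 0.395, adjusted p = 0.919).

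By arm, MRPS27 was the only member called under the control siRNA, at -0.46 (SE 0.107, adjusted p = 0.021), where 9.54% of all genes were called. Without Control-siRNA replicate 2 or 3, or any of the 3 Control-siRNA+Mix libraries, its adjusted p lay between 0.0532 and 0.0988 and no member was called. In those fits 4.5 to 6.16% of all genes were called. Under the PHGDH siRNA no member was called, against 8.86% of all genes. At an unadjusted p under 0.05 there were 7 members (8.97%), beside 22% of all genes. MRPS27 (-0.36, SE 0.107, adjusted p = 0.0618), MRPS18B (-0.51, SE 0.162, adjusted p = 0.0827) and MRPL37 (-0.53, SE 0.177, adjusted p = 0.0974) came nearest. Some fits with 1 library left out called 2 members (2.56%). They were MRPL18 and MRPL24 without Control-siRNA replicate 1, beside 9.67% of all genes. Without PHGDH-siRNA replicate 2 they were MRPL37 and MRPS18B, beside 11.3% of all genes. Without PHGDH-siRNA+Mix replicate 1 they were MRPS18B and MRPS27, beside 6.15% of all genes. Same-numbered libraries of PHGDH-siRNA and PHGDH-siRNA+Mix deviated together, and MRPS18B was lower with mix in all 3 pairs and MRPL33 higher in all 3. The block on the replicate number within this arm, added after seeing the data, called 6 members (7.69%, beside 22.5% of all genes). MRPS27 (adjusted p = 0.00964), MRPS18B (0.00568), MRPL37 (0.00892), MRPL57 and MRPS2 were lower, and MRPL33 was higher.

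Members lay lower with mix in 55 of 78 genes under the control siRNA (median -0.12) and in 67 under the PHGDH siRNA (median -0.18). Both medians moved with single libraries. Under the control siRNA the median was -0.03 (46 lower) without Control-siRNA replicate 2 and -0.23 (65 lower) without Control-siRNA replicate 1. Under the PHGDH siRNA it was -0.03 (44 lower) without PHGDH-siRNA+Mix replicate 2, -0.105 without PHGDH-siRNA replicate 1, -0.338 without PHGDH-siRNA replicate 2 and -0.305 without PHGDH-siRNA+Mix replicate 1. Groups without overlap were found for 11 members lower and 5 higher under the control siRNA (18.7% and 19.1% of all genes), and for 8 lower and 1 higher under the PHGDH siRNA (10.3% and 11.3%).

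The number of members called for mix grew when the 3 low libraries were left out or the trends of all libraries removed, and so did the number over all genes. With the 3 low libraries (Control-siRNA replicate 1 and the replicate 2 libraries of both PHGDH arms) left out, a choice made after seeing the data, 33 members (31 lower, 2 higher) were called in the averaged comparison, 42.3% beside 40.2% of all genes. In these libraries the members' own medians were lowest, and the libraries with the highest medians stayed in. The 33 calls are therefore no separate support for a change with mix. With the trend on GC content and gene length removed there were 17 (16 lower, 1 higher), 21.8% beside 27.9%. All 6 members named above were among the 33 and among the 17, and the median of the 78 was -0.20 and -0.18. By GC quartile, from lowest to highest, the members' median with mix was -0.04, -0.18, -0.26 and -0.17, beside 0.08, -0.01, -0.04 and -0.04 for all genes of those quartiles.

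**Figure D5:**
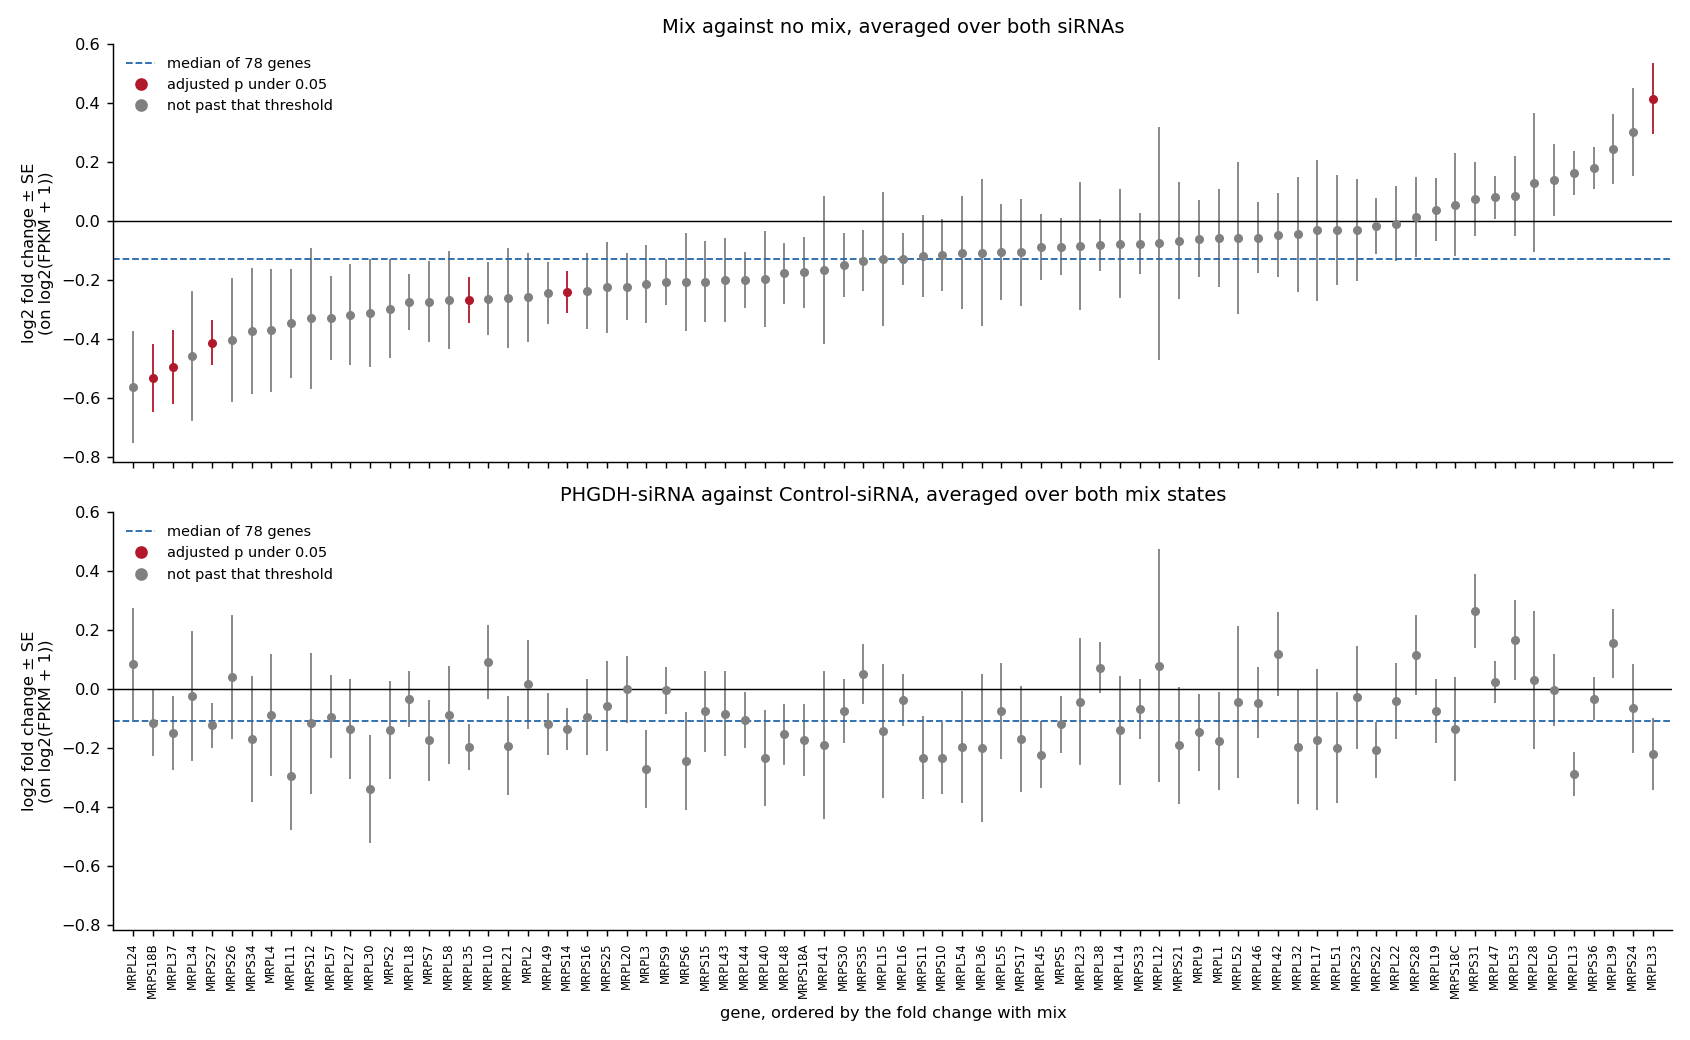
Log2 fold change ± SE on the log2(FPKM + 1) scale (vertical axes) of the 78 genes (horizontal axis, ordered by the change with mix) for mix (top) and for PHGDH siRNA (bottom), each averaged over the other factor; red marks adjusted p under 0.05 and the dashed line the median of the 78. The medians lie at -0.13 and -0.11, 6 genes are red for mix and 0 for PHGDH siRNA.

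The third comparison asks whether mix acted differently under the 2 siRNAs. For no member did this interaction pass the threshold, as for none of all genes (0%); at an unadjusted p under 0.05 there were 0 members and 250 genes in all. MRPL46 (-0.33, SE 0.24), MRPS28 (-0.34, SE 0.27) and MRPL18 (-0.24, SE 0.192) had the lowest p, each with an adjusted p of 1. The median SE of the members was 0.277 on the log2 scale, beside a median of -0.08 for the interaction and of -0.13 for the averaged response to mix. The interaction median was 0.004 (38 of 78 lower) without Control-siRNA replicate 1, 0.055 (26 lower) without PHGDH-siRNA+Mix replicate 2 and -0.013 (41 lower) without PHGDH-siRNA replicate 1, and it fell to -0.229 (69 lower) without PHGDH-siRNA replicate 2, -0.197 without PHGDH-siRNA+Mix replicate 1, -0.173 without Control-siRNA replicate 2 and -0.139 without PHGDH-siRNA+Mix replicate 3. It was -0.048 without replicate 1 of Control-siRNA+Mix and -0.043 without replicate 3 of PHGDH-siRNA, and 0.039 with 3 libraries left out.

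Members with and without a promoter motif are set side by side for mix, with no test. The 21 genes with a YY1 core had a median log2 fold change of -0.09 and the 48 without -0.17; the 30 with an ETS core had -0.12 and the 39 without -0.13. Among the head-to-head partners, 17 were tested and 3 fell with mix (17.6% called, beside 20.9% of all genes in either direction and 9.51% lower): EME1 beside MRPL27 (-0.91, adjusted p = 0.00042), SLC7A7 beside MRPL52 (-0.74, adjusted p = 0.000384) and SKA3 beside MRPL57 (-0.53, adjusted p = 0.0176). The members beside them had -0.32, -0.06 and -0.33 and did not pass the threshold.

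The other components of mitochondrial translation were read from lists of known genes in the averaged mix comparison, in which 20.9% of all genes were called, 9.51% lower and 11.4% higher. Of 19 tested mitochondrial aminoacyl-tRNA synthetases and related enzymes, which charge tRNAs for the mitochondrial ribosome, 8 (42.1%) fell and 0 rose (median -0.24). Among them were EARS2 (-0.66, adjusted p = 0.00443), VARS2 (-0.47, adjusted p = 0.00331) and PARS2 (-0.34, adjusted p = 0.00995). The 8 also held QRSL1 (-0.275, adjusted p = 0.0473) and WARS2 (-0.271, adjusted p = 0.0498), which lay close to the threshold. Of 29 genes for ribosome assembly and rRNA modification, 4 (13.8%) fell and 0 rose (median -0.20): METTL17 (-0.41, adjusted p = 0.00377), NOA1 (-0.41, adjusted p = 0.0317), TFB1M (-0.40, adjusted p = 0.027) and RPUSD4 (-0.28, adjusted p = 0.0324). Of 14 translation factors 3 (21.4%) were called: the release factor homolog MTRF1L (0.43, adjusted p = 0.0127) and the initiation factor MTIF3 (0.35, adjusted p = 0.0409) rose, and MTFMT, which formylates the initiator tRNA, fell (-0.28, adjusted p = 0.0113).

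Of 18 genes for import and inner membrane insertion, 1 (5.56%) fell, beside 9.51% of all genes: OXA1L (-0.47, adjusted p = 0.00183), the insertase that receives new proteins from the ribosome. All 13 mitochondrially encoded mRNAs lay lower with mix (median -0.26), and MT-ND1 (-0.40, adjusted p = 0.0267) and MT-CO3 (-0.33, adjusted p = 0.0491), 15.4% of them, fell, while both mitochondrial rRNAs did not pass the threshold. The median of these mRNAs was -0.34 under the control siRNA and -0.185 under the PHGDH siRNA. In Control-siRNA replicate 1 it lay 0.411 above the rest of its group, and the part of that library in the decrease was not tested. Of 11 tested regulators, 1 (9.09%) fell, the coactivator PPARGC1B (-0.42, adjusted p = 0.0114); NRF1 had -0.29 (adjusted p = 0.0657), YY1 -0.15 (adjusted p = 0.208) and GABPA 0.12 (adjusted p = 0.686). None of the 23 genes for mitochondrial RNA synthesis and processing passed the threshold. Neither did any of the 6 genes in the list of ribosomal proteins without an MRP name, which also held the complex I gene NDUFAB1. With PHGDH siRNA, averaged over mix, no gene of any of these lists was called, where 0.487% of all genes were.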

How the data were processed

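The authors deposited a single table of FPKM values per gene for 12 libraries, with gene length and biotype. Per the submitters' processing notes, CASAVA, HISAT2 2.0.5 and featureCounts 1.5.0-p3 were used with hg38; per the labels' protocols, libraries were made from total RNA with a NEBNext Ultra kit. How the counting treated strand and overlapping genes is not given in the sources used here.

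Genes with a mean of at least 0.5 FPKM in at least 1 group were tested with limma 3.58.1 (R 4.3.3, trend and robust) on log2(FPKM + 1), all 12 libraries in 1 fit (8 residual degrees of freedom), with Benjamini-Hochberg adjustment over all 14577 genes. A fold change on this scale understates the change of low genes. FPKM times gene length gave whole reads within 0.05 for 100% of the values up to 200 reads, and voom on these reads was an alternative. The fit was run on simulated counts, drawn without the differences in base composition seen between these libraries. That run does not show how well changes of the members' size are found here. Same-numbered libraries of PHGDH-siRNA and PHGDH-siRNA+Mix deviated together from their group means (correlations 0.69, 0.775 and 0.459), so the numbers were taken to pair these libraries, from the data and not the labels, and a block within that arm was added after seeing the data; in the other 3 comparisons of 2 groups at most 1 of 3 pairs correlated above 0.1. Named members were those past adjusted p 0.05 in a comparison (else the 3 with the lowest p), the 5 highest and 5 lowest by mean, the 3 furthest up and the 3 furthest down in both replicate 2 libraries of the PHGDH arms, and a panel of well-known members; MRPL24, MRPL30, MRPS9, MRPL18, MRPL47, MRPL57 and members named only for their promoter or neighbour were chosen after their values were seen, as were the promoters printed. The members and lists were chosen with earlier results of these data known. Coordinates are GRCh38; all 78 genes had the coordinates and exon length of GENCODE 29.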

Additional observations from a re-analysis of the deposited data

How the results depend on the processing

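The 22 gene results named from the comparisons kept their sign in all 483 refits; 35 lost and 16 gained the threshold. The members' median moved across 0 with both PHGDH-arm replicate 2 libraries left out (PHGDH siRNA 0.083 without mix, 0.010 with mix, 0.043 averaged), and with 3 libraries left out (with mix 0.010, interaction 0.039); the latter choice and the GC and length correction were made after seeing the data. Percentages in brackets below give the share of all genes called in the same fit. Members called for PHGDH siRNA averaged became 1 with 3 libraries left out (6.21%). For mix under control siRNA (1 in the report) they became 0 without a filter (2.89%). There were 2 with a filter of 5 FPKM (15.3%), with median-of-ratios scaling (9.7%) or with voom (9.56%). A fit of its own 2 groups called 4 (18.1%), and 7 were called without the PHGDH-arm replicate 2 libraries (20.8%). With the GC and length trend removed there were 3 (13.5%). With 3 libraries left out there were 19 (27.1%, beside 24.4% of the members). For mix under PHGDH siRNA (0) they became 1 with the 5 FPKM filter (14.5%) and 2 with median-of-ratios scaling (9.13%). There was 1 without the PHGDH-arm replicate 2 libraries (15.1%) and 4 with the trend removed (12.8%). There were 6 with 3 libraries left out (21.6%) and 6 with the replicate block within the PHGDH arm (22.5%). For mix averaged (6) they became 3 without a filter (7.42%), when 32520 genes shared the adjustment. There were 7 with the 5 FPKM filter (29.6%), with median-of-ratios scaling (21.1%) or without the PHGDH-arm replicate 2 libraries (30.7%). With voom there were 5 (21.1%). With the trend removed there were 17 (27.9%), and with the replicate block within the PHGDH arm 22 (37.9%). With 3 libraries left out there were 33 (40.2%, beside 42.3% of the members). The causes were not tested otherwise.

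Leaving out each replicate in turn gave medians from -0.175 to 0.083 (PHGDH siRNA without mix), -0.301 to 0.010 (with mix), -0.169 to -0.016 (averaged), -0.232 to -0.026 (mix, control siRNA), -0.338 to -0.034 (mix, PHGDH siRNA), -0.213 to -0.073 (mix averaged) and -0.229 to 0.055 (interaction, above 0 without Control-siRNA replicate 1, 0.004, or PHGDH-siRNA+Mix replicate 2). Members called ranged from 0 to 0 in all PHGDH siRNA comparisons and the interaction, 0 to 2 for mix in each arm and 3 to 9 for mix averaged, 3 without any of the Control-siRNA+Mix libraries. Of all genes, 4.5 to 12.2% were called in these fits for mix under control siRNA and 4.52 to 11.3% under PHGDH siRNA. For mix averaged it was 15.1 to 24.4%, and at most 0.66% in the PHGDH siRNA comparisons. For mix under control siRNA 2 were called without replicate 1 of Control-siRNA, replicate 2 of PHGDH-siRNA or either of replicates 1 and 2 of PHGDH-siRNA+Mix.

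With the replicate number as a block over all 12 libraries, 4 members were called for mix averaged (5.13%, beside 20.1% of all genes). MRPL33 and MRPS14 were lost. For mix under control siRNA 1 member was called (1.28%, beside 8.87% of all genes). Over all groups 5 of 18 same-numbered pairs correlated above 0.1, from -0.387 to 0.775, so the numbers are taken to pair only the PHGDH arm; the block within it changed no call of the interaction.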
